A study of Mus musculus with 8 samples.

Results

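Retinoid metabolism and its receptors were followed through 9 genes in mouse skin treated with MC903 plus phytic acid or with MC903 alone. The genes encode binding proteins (Crabp1 and Crabp2), enzymes that make retinoic acid (Rdh10, Dhrs9, Aldh1a1 and Aldh1a3), an enzyme that breaks it down (Cyp26b1) and receptors (Rara and Rarg). They were taken by name from a table of 21885 named genes, and all 9 were present and passed the filter on low values. Expression had been measured by RNA sequencing in 4 libraries of skin that received MC903 together with phytic acid and in 4 of skin that received MC903 only, which the submitters titled control. Calcipotriol, known as MC903, acts like vitamin D and is put on mouse skin to provoke dermatitis, and phytic acid is inositol hexaphosphate. The labels give neither strain, age, sex, route nor time, and no untreated skin was analysed here, so each comparison is within MC903-treated skin. Since nothing states that each library is a separate mouse, every p-value below speaks of the scatter among these libraries, part or all of which may be technical.

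Cells take up retinol (vitamin A), bind it to cellular retinol-binding proteins and store it as esters that Lrat makes. Retinol is oxidised reversibly to retinal and then irreversibly to retinoic acid, which reaches its nuclear receptors on binding proteins and is removed by enzymes of the Cyp26 family. The receptors (RAR) work as partners of retinoid X receptors (RXR), which also pair with the vitamin D receptor that MC903 activates. In skin this pathway is known to steer keratinocyte differentiation, the sebaceous gland and the hair cycle.

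Crabp2 and Crabp1 are paralogues that are compared below, so the start of their coding sequences is shown. The 69 bases from the start codon lie in coding exon 1 of each gene on the + strand of GRCm38, at chr3:87948841-87948909 for Crabp2 and chr9:54764902-54764970 for Crabp1. Capitals mark the 25 positions at which the sequences differ when set side by side, and small letters the 44 at which they are the same.
Crabp2: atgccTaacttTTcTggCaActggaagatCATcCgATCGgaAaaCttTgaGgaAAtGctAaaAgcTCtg
Crabp1: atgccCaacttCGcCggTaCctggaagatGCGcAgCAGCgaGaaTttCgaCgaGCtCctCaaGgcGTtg
Over the whole coding sequence (GENCODE M21) 70.8% of 414 aligned bases were identical, and the longest stretch shared without a mismatch was 11 bases. Coding identity was 68.2% between Aldh1a3 and Aldh1a1 (longest shared stretch 17 bases) and 73.6% between Rarg and Rara (24 bases). Aldh1a1 has a closer copy, Aldh1a7, with 91.6% identity and a shared stretch of 100 bases. The counting of reads that match both is not stated, so the value of Aldh1a1 is uncertain to that extent. Aldh1a7 itself had 8.01, 1.97, 3.79 and 4.02 FPKM with phytic acid replicates 1 to 4. With MC903 replicates 1 to 4 it had 1.38, 1.15, 2.04 and 1.42 FPKM, so the uncertainty may differ between the groups.

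Values were deposited as FPKM, which scales the reads of a gene to its length and to the library. Library totals recovered from the values were 38310034 to 42997271 reads with phytic acid and 31676934 to 37639476 with MC903 alone. Markers of the labelled tissue were abundant: the summed FPKM of 12 suprabasal keratinocyte markers was 10665 to 13845 with phytic acid and 6827 to 11202 with MC903 alone. MC903 replicate 3 stood apart from its group. On the leading principal component of the tested genes, which held 63.8% of the variance, the 4 phytic acid libraries scored 24.9 to 39.5, MC903 replicate 3 scored -8.41 and the other MC903 libraries -42.8 to -33.3. The summed FPKM of 17 hair follicle markers was 419 to 464 with phytic acid, 4664 in MC903 replicate 3 and 659 to 782 in the other MC903 libraries. Of these markers, 6 were listed at 0 in at least 1 library. Values without that library are given where a call or a count of calls changes, or where the fold change moves by over 1.5 times.

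Of the 9 genes, 1 fell with phytic acid and 0 rose. That gene was Crabp2, whose mean level in MC903 skin was 5.42 times that with phytic acid. Across all 12165 genes tested, 14.2% were called higher, 11.6% lower and 25.8% either way (adjusted p under 0.05, limma with Benjamini-Hochberg adjustment), so 1 call in 9 is no excess over the background. Crabp2 was also the 1 gene of the 9 whose groups did not overlap, against 27.3% of all genes tested. The median log2 fold change of the 9 was -0.13, beside 0.05 for all tested genes. Log2 fold changes are on the log2(FPKM + 1) scale, positive where phytic acid is higher, and this scale understates changes of low genes. The count of the 9 called higher was 0 in each of 19 alternatives as well, although Crabp1, Aldh1a3, Dhrs9 and Rara were not tested at a mean FPKM of at least 5.

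**Figure D1:**
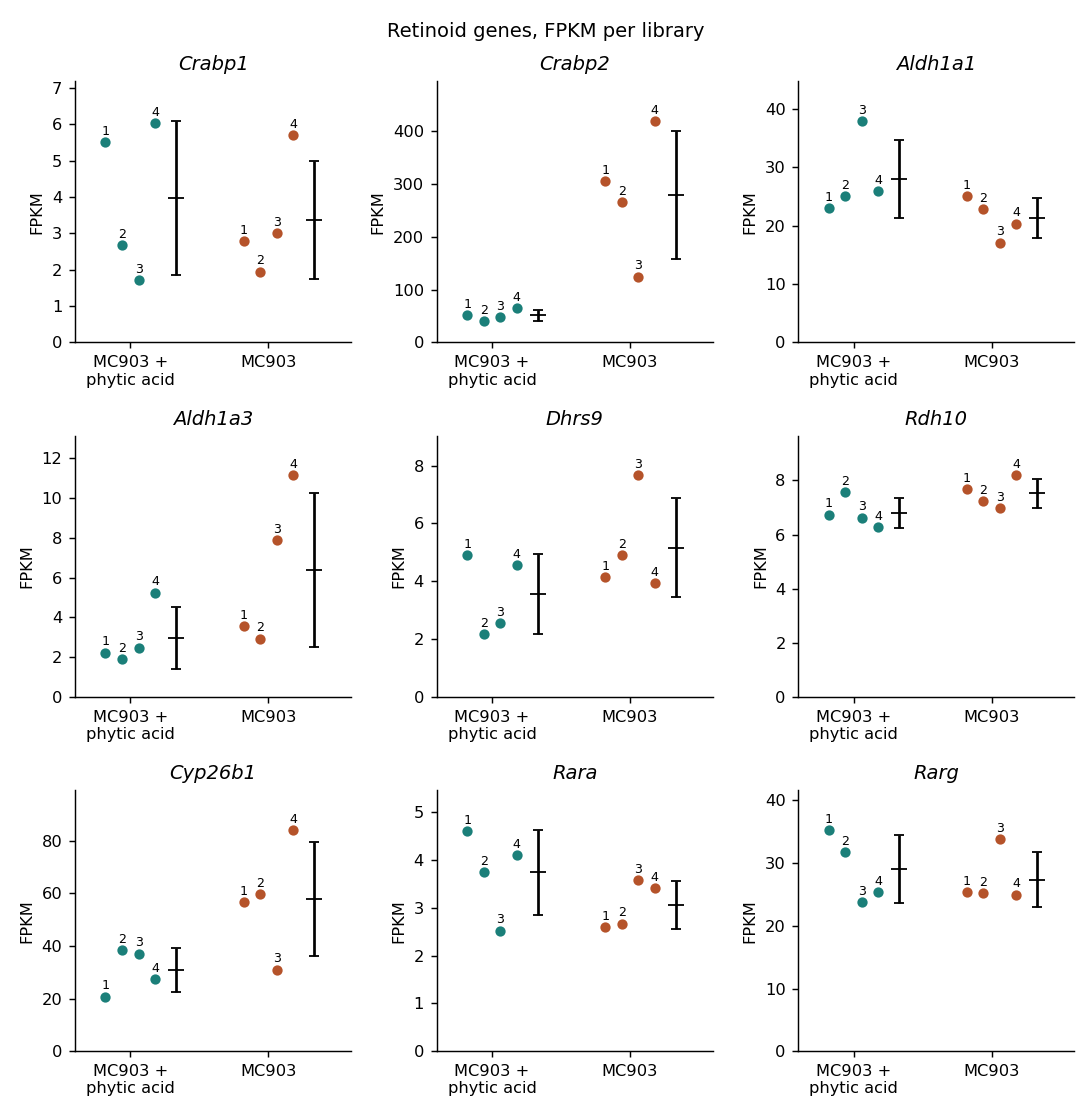
Each panel shows 1 gene, with FPKM on the vertical axis from 0 and 1 numbered point per library, MC903 plus phytic acid on the left and MC903 on the right. Black bars are the group mean ± SD (n = 4 each). The groups are separate for Crabp2, with a highest value of 65.2 FPKM with phytic acid and a lowest value of 125 FPKM with MC903 alone, and overlap for the other 8 genes.

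Crabp2 encodes the protein that carries retinoic acid to its receptors in the nucleus, and its gene (ENSMUSG00000004885.5, protein-coding) spans 87948666 to 87953376 on chromosome 3. It had 52.2, 40.6, 47.4 and 65.2 FPKM in MC903 plus phytic acid replicates 1 to 4, against 305, 265, 125 and 419 FPKM in MC903 replicates 1 to 4. Every phytic acid library lay below every MC903 library, and the lowest MC903 value was that of replicate 3. The means were 51.4 ± 10.4 FPKM with phytic acid and 279 ± 122 FPKM with MC903 alone (SD, n = 4 each), a log2 fold change of -2.31 ± 0.32 (SE) with a 95% interval of -3.03 to -1.59. Its adjusted p was 0.00141 by limma, and 72 of the 12165 tested genes had a lower log2 fold change. Without MC903 replicate 3 the change was -2.65 ± 0.19. The gene rested on 2057 to 20723 reads per library.

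Other markers moved in the same libraries as Crabp2. The 4 wound keratinocyte markers (Krt6a, Krt6b, Krt16 and Krt17) summed to 740 to 1193 FPKM with phytic acid and 3316 to 6734 FPKM with MC903 alone, and 3 of the 4 were called lower. Of 12 suprabasal markers 7 were higher and 1 lower, and of 11 tested skeletal muscle markers 9 were higher. Among all tested genes 14.2% were called higher and 11.6% lower. Of 12 basal keratinocyte markers 2 were higher and 2 lower, and their sum was 2750 to 3243 FPKM with phytic acid and 4495 to 8108 FPKM with MC903 alone. The summed muscle markers were 7817 to 9072 FPKM with phytic acid and 3649 to 4261 FPKM with MC903 alone. Their part in the result was not tested. In bulk skin, fewer cells of a type and less RNA per cell cannot be told apart.

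Crabp1, the other retinoic acid-binding protein, spans 54764748 to 54773110 on chromosome 9. It was low, with 5.51, 2.67, 1.71 and 6.02 FPKM with phytic acid and 2.79, 1.95, 3.01 and 5.70 FPKM with MC903 alone. The groups covered much the same range, and each held a library near 6 FPKM. The log2 fold change of 0.15 ± 0.34 had an interval of -0.61 to 0.90 (adjusted p = 0.776 by limma), on 50 to 197 reads per library. The estimate changed sign when phytic acid replicate 1 (-0.02) or 4 (-0.05) or MC903 replicate 2 (-0.02) was left out.

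The FPKM ratio of the paralogues within a library does not depend on how libraries are scaled. Crabp2 exceeded Crabp1 9.48, 15.2, 27.7 and 10.8 times in FPKM with phytic acid replicates 1 to 4, against 109, 136, 41.4 and 73.5 times with MC903 replicates 1 to 4. The smallest excess in MC903 skin, in replicate 3, was above the largest with phytic acid. On the log2 scale 1 was added to each FPKM, so this form of the ratio depends in part on scaling. It averaged 3.48 ± 0.49 with phytic acid and 5.94 ± 0.69 with MC903 alone, a difference of -2.46. An exact two-sided permutation test gave p = 0.0286, the smallest that 4 against 4 libraries allow, and 0.0857 after adjustment over the 3 paralogue ratios compared.

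**Figure D2:**
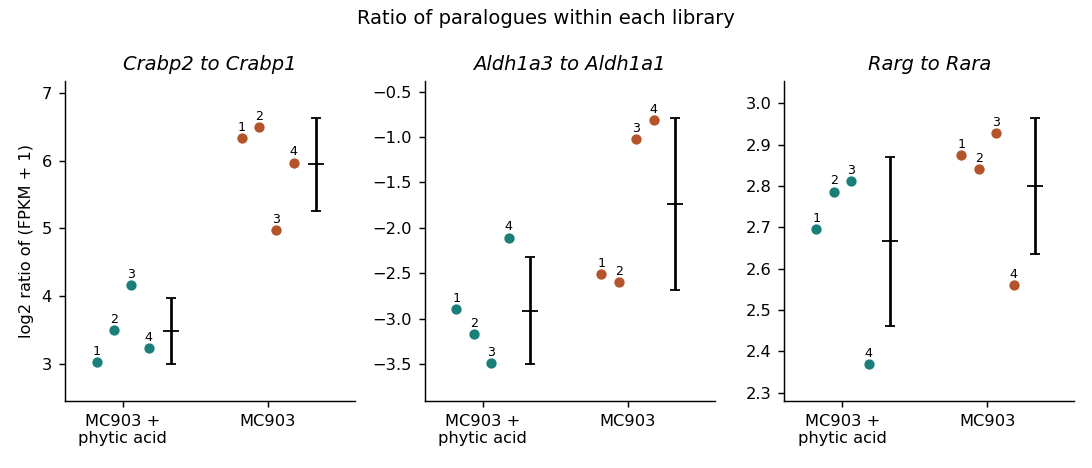
Points are the log2 ratio of (FPKM + 1) of 1 paralogue to the other in each numbered library, MC903 plus phytic acid on the left and MC903 on the right, with the group mean ± SD in black (n = 4 each). The vertical axes differ between panels and do not start at 0. The Crabp2 to Crabp1 ratio lies at 3.03 to 4.16 with phytic acid and at 4.97 to 6.50 with MC903 alone, while both other ratios overlap.

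Among the enzymes that make retinoic acid, none was called. Rdh10, which oxidises retinol to retinal, spans 16105774 to 16133734 on chromosome 1 and was the steadiest of the 9. It stood at 6.74, 7.57, 6.62 and 6.27 FPKM with phytic acid and 7.69, 7.22, 6.97 and 8.18 FPKM with MC903 alone. The groups overlapped, and the log2 fold change of -0.13 ± 0.09 had an interval of -0.33 to 0.08 (adjusted p = 0.339 by limma). Dhrs9, a dehydrogenase known from human cells to oxidise retinol, spans 69380445 to 69404533 on chromosome 2. It had 4.92, 2.18, 2.55 and 4.57 FPKM with phytic acid and 4.15, 4.92, 7.66 and 3.94 FPKM with MC903 alone. Phytic acid replicates 2 and 3 were the lowest and MC903 replicate 3 the highest, and the other values lay together. The log2 fold change was -0.45 ± 0.24 (adjusted p = 0.204), and -0.28 ± 0.22 without MC903 replicate 3.

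Aldh1a1 and Aldh1a3 encode retinal dehydrogenases, which make retinoic acid from retinal. Aldh1a1 (chromosome 19, 20492715 to 20643465) was the more abundant, with 23.1, 25.01, 38.0 and 25.9 FPKM with phytic acid and 25.03, 22.9, 17.1 and 20.4 FPKM with MC903 alone. Phytic acid replicate 3 was the highest and MC903 replicate 3 the lowest, and between them the groups overlapped. Its log2 fold change was 0.36 ± 0.17 with an interval of -0.01 to 0.74 (adjusted p = 0.142 by limma). Aldh1a3 (chromosome 7, 66390890 to 66427517) had 2.23, 1.89, 2.47 and 5.24 FPKM with phytic acid and 3.57, 2.93, 7.89 and 11.1 FPKM with MC903 alone. MC903 replicates 3 and 4 were high, replicates 1 and 2 lay below phytic acid replicate 4, and the replicates of MC903 differed among themselves by more than the group means did. The log2 fold change was -0.82 ± 0.37 with an interval of -1.65 to 0.02 (adjusted p = 0.138). Hair follicle markers summed to 670, 782, 4664 and 659 FPKM in MC903 replicates 1 to 4. Their part in this spread was not tested.

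Set against each other within a library, Aldh1a3 was 0.0966, 0.0755, 0.0652 and 0.202 times Aldh1a1 in FPKM with phytic acid, against 0.143, 0.128, 0.461 and 0.547 times with MC903 alone. On the log2 scale with 1 added to each FPKM the difference between the groups was -1.18 (exact two-sided permutation p = 0.114, adjusted p = 0.171 over the 3 ratios). The groups overlapped through phytic acid replicate 4 and MC903 replicates 1 and 2.

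Cyp26b1, which breaks down retinoic acid, spans 84571414 to 84593908 on chromosome 6. It had 20.9, 38.5, 37.2 and 27.5 FPKM with phytic acid and 56.6, 59.8, 31.1 and 84.2 FPKM with MC903 alone. MC903 replicates 1, 2 and 4 lay above every phytic acid library, and MC903 replicate 3 lay among them. The means were 31.0 ± 8.35 FPKM with phytic acid and 57.9 ± 21.7 FPKM with MC903 alone (SD, n = 4 each), and the log2 fold change of -0.84 ± 0.29 did not pass (adjusted p = 0.0595 by limma). Without MC903 replicate 3 it was -1.10 ± 0.22 and passed (adjusted p = 0.00623). Centred on basal keratinocyte markers it was -0.77 ± 0.25 and passed (adjusted p = 0.0446), and over all 19 alternatives the adjusted p ran from 0.00623 to 0.144.

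**Figure D3:**
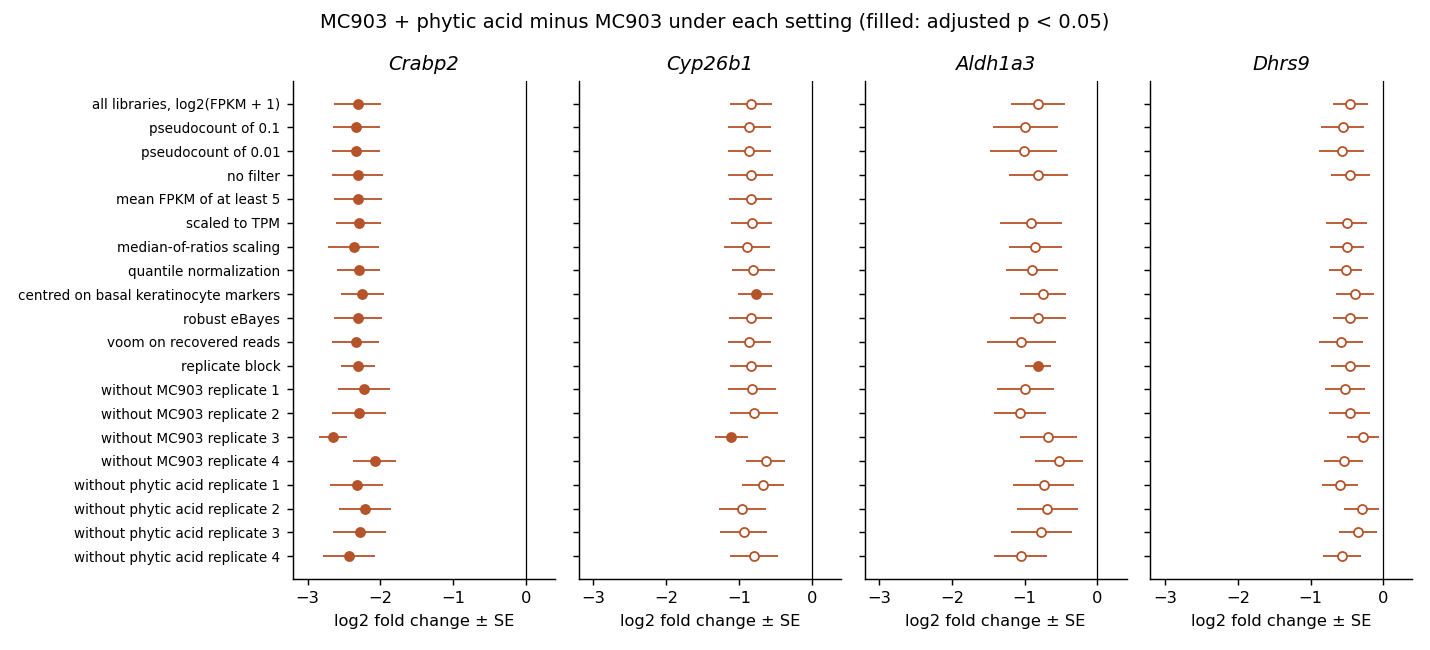
Points are the log2 fold change (MC903 plus phytic acid minus MC903) ± SE of Crabp2, Cyp26b1, Aldh1a3 and Dhrs9 under each setting, 1 setting per row, and filled points have an adjusted p under 0.05. Crabp2 is filled in every row, between -2.65 and -2.07, and Cyp26b1 only centred on basal keratinocyte markers and without MC903 replicate 3. Aldh1a3 is filled with a replicate block only, and neither it nor Dhrs9 has a point in the row of mean FPKM of at least 5.

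The receptors were not called. Rarg, the main retinoic acid receptor of mouse epidermis, spans 102234938 to 102257517 on chromosome 15. It had 35.3, 31.7, 23.7 and 25.3 FPKM with phytic acid and 25.3, 25.2, 33.8 and 25.0 FPKM with MC903 alone. Both groups held libraries near 25 and near 34 FPKM, and the high MC903 library was replicate 3. Its log2 fold change of 0.08 ± 0.15 had an interval of -0.26 to 0.41 (adjusted p = 0.738 by limma), and without MC903 replicate 3 it was 0.18 ± 0.14 (adjusted p = 0.351). Rara, which is expressed in most tissues, spans 98927818 to 98974942 on chromosome 11. It had 4.59, 3.74, 2.52 and 4.10 FPKM with phytic acid and 2.59, 2.67, 3.58 and 3.40 FPKM with MC903 alone, so that 3 of the 4 phytic acid libraries lay above every MC903 library and replicate 3 below them all. The log2 fold change was 0.21 ± 0.16 with an interval of -0.14 to 0.56 (adjusted p = 0.354). Rarg exceeded Rara 6.18 to 9.41 times with phytic acid and 7.34 to 9.78 times with MC903 alone (log2 difference -0.13, exact two-sided permutation p = 0.371, adjusted p = 0.371 over the 3 ratios).

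In FPKM, which is per length, Crabp2 was the most abundant of the 9 in both groups, and its lowest library exceeded the highest of the next gene, Cyp26b1, in each. Cyp26b1, Rarg and Aldh1a1 followed in that order in both groups, and neighbours among them overlapped in range. A gap then separated Aldh1a1 from Rdh10. Below it, with phytic acid, came Rdh10, Crabp1, Rara, Dhrs9 and Aldh1a3 at means of 6.80, 3.98, 3.74, 3.56 and 2.96 FPKM, where the values of Rdh10 lay above those of Crabp1 and the later neighbours overlapped. With MC903 alone the order was Rdh10, Aldh1a3, Dhrs9, Crabp1 and Rara at 7.52, 6.38, 5.17, 3.36 and 3.06 FPKM, and neighbours overlapped throughout.

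The rest of the pathway was read from lists by role that held 66 other genes, of which 48 passed the filter on low values. Of these 48, 8 rose and 9 fell with phytic acid, beside 14.2% and 11.6% of all tested genes, and their median log2 fold change was 0.05, as for all tested genes. Without MC903 replicate 3, 12 rose and 11 fell, beside 19.9% and 12.8% of all tested genes in that setting, and leaving out phytic acid replicate 2 or any 1 of MC903 replicates 1, 2 and 4 gave 5 that rose. Of the 8, Rbp4, Bco2 and Aldh1a2 passed the filter on low values only with the help of the phytic acid libraries, since 2, 0 and 0 of their MC903 libraries reached 1 FPKM, so that the filter itself favoured a higher value with phytic acid.

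Of 12 tested uptake, binding and storage genes, 5 were called lower and 3 higher, with a median of -0.18. Among all tested genes 11.6% were called lower and 14.2% higher. Without MC903 replicate 3 there were 5 and 4, beside 12.8% and 19.9% of all tested genes. Lrat, the enzyme that stores retinol as its ester, had 2.02, 1.95, 1.73 and 4.14 FPKM with phytic acid, against 60.0, 41.0, 26.3 and 62.6 FPKM with MC903 alone. The groups stood far apart, and MC903 replicate 3 was the lowest of its group, as for Crabp2. The log2 fold change was -3.78 ± 0.29 (adjusted p = 1.5e-04 by limma), and the MC903 mean was 19.3 times the phytic acid mean. Rbp2, the retinol-binding protein best known from the intestine, averaged 48.01 ± 12.2 FPKM with phytic acid and 207 ± 43.1 FPKM with MC903 alone, and fell by 2.10 on the log2 scale (adjusted p = 3.4e-04 by limma).

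Fabp5, the epidermal fatty acid-binding protein, which can also carry retinoic acid, averaged 221 ± 48.4 FPKM with phytic acid and 1185 ± 272 FPKM with MC903 alone (SD, n = 4 each). It fell by 2.41 on the log2 scale (adjusted p = 2.7e-04 by limma). In each of Lrat, Rbp2 and Fabp5 every phytic acid library lay below every MC903 library, and each kept its direction and call in the 19 alternatives. Further calls of this list are named after their values were seen. Dgat1, an acyltransferase that can esterify retinol, fell (-0.56 ± 0.12, SE, adjusted p = 0.0114 by limma). Awat2, an ester-forming enzyme of the sebaceous gland, rose (0.87 ± 0.24, adjusted p = 0.0268). The groups of Awat2 overlapped, with 14.9 FPKM in phytic acid replicate 1 and 16.3 FPKM in MC903 replicate 1. Because of the filter, Bco2 and Rbp4 are given by their values alone. Bco2, a carotenoid-cleaving enzyme, averaged 1.36 ± 0.335 FPKM with phytic acid and 0.488 ± 0.272 FPKM with MC903 alone (SD, n = 4 each). Rbp4, the retinol carrier of blood, was uneven, at 16.6, 3.32, 2.41 and 6.17 FPKM with phytic acid and 0.306, 1.37, 2.04 and 0.677 FPKM with MC903 alone. Over the alternatives, 5 or 6 genes of this list were called lower and 1 to 4 higher. Adipocyte markers, whose cells also make Rbp4, summed to 564 to 1056 FPKM with phytic acid and 182 to 512 FPKM with MC903 alone, and their part was not tested. Sebaceous gland markers summed to 680 to 1553 FPKM with phytic acid and 867 to 1023 FPKM with MC903 alone.

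**Figure D4:**
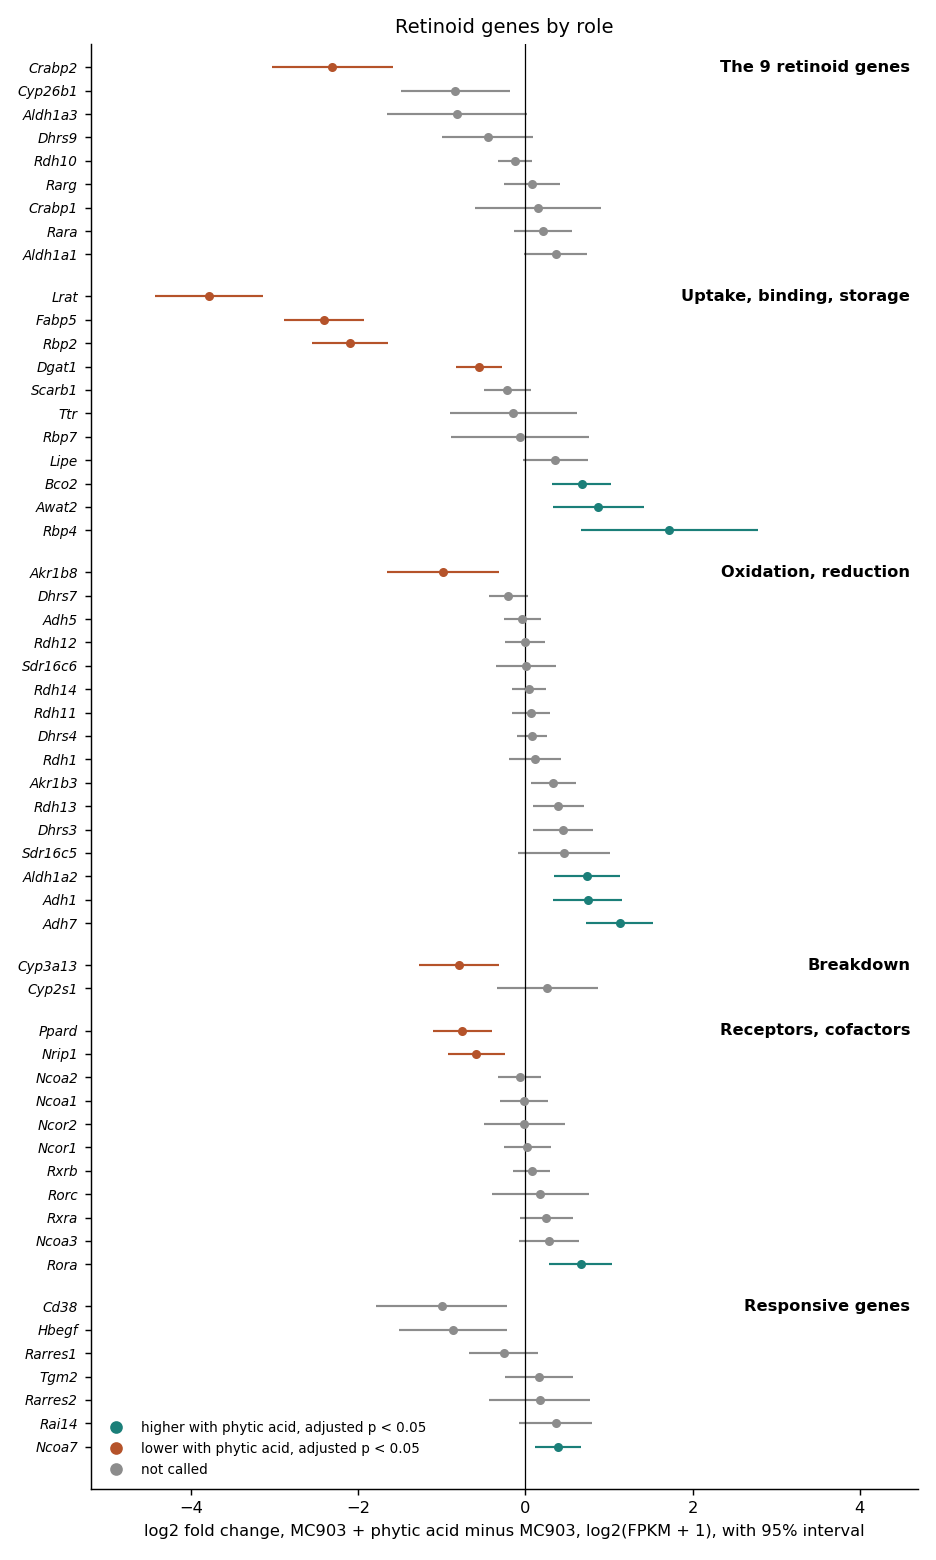
Points are log2 fold changes (MC903 plus phytic acid minus MC903, on log2(FPKM + 1)) with their 95% intervals, 1 gene per row, for the 9 genes and for the tested genes of the other retinoid lists by role, of which 1 is not drawn. A gene on several lists is drawn once. Lrat at -3.78, Fabp5 at -2.41, Crabp2 at -2.31 and Rbp2 at -2.10 lie farthest to the left, and most oxidation enzymes and receptors lie near 0.

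Of 16 tested enzymes that oxidise or reduce retinol and retinal, 3 were called higher and 1 lower, with a median of 0.10. Together 25.0% were called, beside 25.8% of all tested genes (14.2% higher and 11.6% lower). Without MC903 replicate 3 there were 4 and 1, beside 19.9% and 12.8% of all tested genes. Adh7, an alcohol dehydrogenase of epithelia that oxidises retinol, had 25.2, 33.2, 37.6 and 26.8 FPKM with phytic acid and 13.1, 15.7, 16.0 and 9.60 FPKM with MC903 alone. The groups did not overlap, and the log2 fold change was 1.13 ± 0.18 (adjusted p = 0.00229 by limma). Its relative Adh1 averaged 20.7 ± 5.83 FPKM with phytic acid and 11.7 ± 1.67 FPKM with MC903 alone (SD, n = 4 each; 0.75 ± 0.18, adjusted p = 0.0168). Aldh1a2, a retinal dehydrogenase known from dendritic cells and mesenchyme, was low, at 1.11, 1.40, 1.33 and 2.57 FPKM with phytic acid and 0.753, 0.386, 0.669 and 0.354 FPKM with MC903 alone. Because Aldh1a2 passed the filter only through its phytic acid libraries, it is given by its values alone, though it is among the 3 called higher. Of 9 tested macrophage and dendritic cell markers 7 were also called higher, with sums of 1154 to 1918 FPKM with phytic acid and 633 to 837 FPKM with MC903 alone. Of 8 tested dermal fibroblast and papilla markers 3 were called higher and 0 lower, with sums of 594 to 1143 FPKM with phytic acid and 443 to 532 FPKM with MC903 alone. The part of either in the values of Aldh1a2 was not tested.

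Akr1b8, an aldo-keto reductase that can reduce retinal, fell by 0.99 on the log2 scale (adjusted p = 0.0377 by limma), though its groups overlapped. With 1 library left out its adjusted p ranged from 0.00366 to 0.0981. Its call was lost when phytic acid replicate 1 or 2 or MC903 replicate 1, 2 or 4 was absent. It was also lost without the filter on low values (adjusted p = 0.0737 by limma). The other 12 tested enzymes were not called, with log2 fold changes from -0.20 (Dhrs7) to 0.46 (Sdr16c5), and those named here are named after their values were seen. Toward the upper end lay Akr1b3 (0.33, adjusted p = 0.0653) and Rdh13 (0.39, adjusted p = 0.0573), whose groups did not overlap, and Dhrs3 (0.45, adjusted p = 0.0673), whose groups did.

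Of 5 breakdown genes, 2 passed the filter on low values. With 0 called higher and 1 lower, they stood beside 14.2% and 11.6% of all tested genes. Without MC903 replicate 3 there were 1 and 1, beside 19.9% and 12.8%. Cyp3a13, a cytochrome P450 of a family that can oxidise retinoids, fell by 0.80 on the log2 scale (adjusted p = 0.0237 by limma), a call that was lost on leaving out phytic acid replicate 4 (adjusted p = 0.0619) or MC903 replicate 1 (0.0677), 2 (0.0625) or 4 (0.0569). Cyp26a1, the relative of Cyp26b1 that retinoic acid is known to induce, was below the filter and is named after its values were seen. It had 0, 6, 10 and 4 reads with phytic acid replicates 1 to 4, against 122, 44, 101 and 55 reads with MC903 replicates 1 to 4. As FPKM these were 0 to 0.117 with phytic acid and 0.692 to 1.94 with MC903 alone, so the groups did not overlap at these low levels. Fitted without the filter it was called lower (adjusted p = 0.00862 by limma). Cyp26c1 had 0, 0, 3 and 0 reads with phytic acid and 25, 10, 19 and 17 reads with MC903 alone. It was also called lower in that fit (adjusted p = 0.00752). Bco1, of the uptake, binding and storage list, was below the filter too and went the other way. It had 0.985 to 1.26 FPKM with phytic acid and 0.0841 to 0.919 FPKM with MC903 alone, on 8 to 137 reads per library. Without the filter it was called higher (0.74 ± 0.18, adjusted p = 0.0274 by limma). No other listed gene below the filter was called in that fit.

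Among 11 tested receptors and cofactors, 1 rose and 2 fell, beside 14.2% and 11.6% of all tested genes, with a median of 0.02. Ppard, a nuclear receptor that has been described to take up retinoic acid from Fabp5, averaged 3.02 ± 0.62 FPKM with phytic acid and 5.79 ± 1.30 FPKM with MC903 alone (SD, n = 4 each; -0.75 ± 0.16, adjusted p = 0.00814 by limma). The corepressor gene Nrip1 fell (-0.59 ± 0.15, adjusted p = 0.0211) and the orphan receptor gene Rora rose (0.66 ± 0.17, adjusted p = 0.0194). Leaving out phytic acid replicate 2 or MC903 replicate 1 ended the call of Rora (adjusted p = 0.0528 and 0.0582), and leaving out phytic acid replicate 3 or 4 or MC903 replicate 1 that of Nrip1 (0.05002, 0.0547 and 0.0632). Rxra, a retinoid X receptor known to be abundant in epidermis, was not called and is named after its values were seen, at 34.1 ± 6.50 FPKM with phytic acid and 28.2 ± 3.28 FPKM with MC903 alone.

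Of 10 tested genes known to respond to retinoic acid, 1 rose and 2 fell, with a median of -0.05. Among all tested genes 14.2% were called higher and 11.6% lower. Lrat, described above, was among those that fell. Ncoa7, a coactivator gene, rose by 0.39 on the log2 scale (adjusted p = 0.0451 by limma), a call lost in 10 of 18 alternatives, 6 of them with 1 library left out (all but MC903 replicate 3 and phytic acid replicate 3). Without MC903 replicate 3, 3 genes of this list were called higher and 4 lower, where 19.9% and 12.8% of all tested genes were.

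Likeness to each of the 9 was measured as the mean absolute difference over the 8 libraries between log2(FPKM + 1) profiles, each centred on its own mean. Closest to Crabp2 were Lipg, the endothelial lipase gene (0.17 log2 units), and Cd24a, a surface glycoprotein gene (0.20), which averaged 53.8 ± 11.9 FPKM with phytic acid and 298 ± 95.7 FPKM with MC903 alone (SD, n = 4 each). Closest to Cyp26b1 were the hormone gene Stc1 (0.06) and the mitochondrial carrier gene Slc25a28 (0.11). Crabp1 lay nearest to Prelid2 and Gbp5 (both 0.15), Aldh1a1 to Cox6a2 (0.07) and Rabac1 (0.09), Aldh1a3 to Ednrb (0.23) and Prss12 (0.28), and Dhrs9 to Ero1a (0.11) and Fam136a (0.14). Rdh10 lay nearest to Fbxo11 (0.03) and Asb6 (0.04), Rara to B3gnt9 (0.04) and Ntrk2 (0.05), and Rarg to Madd and Nxf1 (both 0.05). A gene that varies little has many close profiles by this measure.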

How the data were processed

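Per the labels' protocols, skin RNA was extracted with TRIzol and sequenced from SMARTER mRNA libraries. Expression was deposited by the authors as FPKM. Named in the submitters' processing notes, without roles, are mm10 and the tools cutadapt, HISAT2, TopHat2 and DESeq. Their versions, the annotation and the strand setting: not given in the sources used here.

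The 51 unnamed rows, at most 0.0238% of a library's FPKM, were left out, and of 21 repeated names the row of highest mean was kept. Multiplied by exon length (GENCODE M21, GRCm38, the assembly of mm10), the deposited FPKM came within 0.05 of whole reads in every library for 17509 of 17980 genes (97.4%), which gave library totals. To set the size of a single read, the commonest low value of each library was taken as a pair of reads. Low read numbers were then mostly even (71.4% to 74.8%), which that choice favours. Both mates of a pair may have been counted, but the even share cannot settle this. Within groups, libraries differed beyond counting noise (chi-square of 43.6 to 192 per gene), so none was merged.

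A gene was tested where 4 or more libraries reached 1 FPKM. The test was limma 3.58.1 (R 4.3.3; trended eBayes, group only, two-sided) on log2(FPKM + 1), with Benjamini-Hochberg adjustment over 12165 genes and a threshold of 0.05. Paralogue ratios were compared by exact permutation. The text names the 9 genes, per other list up to 4 called genes of smallest p, and the 2 closest profiles, with exceptions stated. A further gene of the lists is included in their counts but is not reported here. Alternatives were pseudocounts, filters, scalings, robust eBayes, limma voom on the recovered reads, a replicate block and leaving out each library. The 9 genes, the lists and these choices were made with earlier results of these data known.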

Additional observations from a re-analysis of the deposited data

Results flagged for a closer look

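In 4 of 50 groups of 4 values examined, 1 library lay far from the other 3 relative to the group's range, where chance gives about 1 in 20 groups (2.5 here). Rarg was high in MC903 replicate 3, at 33.8 FPKM. Lrat was highest in phytic acid replicate 4, at 4.14 FPKM, and Fabp5 in the same library, at 293 FPKM. Ppard was highest in MC903 replicate 4, at 7.74 FPKM.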

How the results depend on the processing

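Over 19 alternatives Crabp2 stayed called lower, with log2 fold changes of -2.65 to -2.07. The count of the 9 genes called lower was 1, but 2 centred on basal keratinocyte markers (Cyp26b1 added) and 2 with a replicate block (Aldh1a3 added, adjusted p = 0.0259 by limma). With 1 library left out it was 1 or 2. Genes called among all tested numbered 3134, 2046 with the block, and 2013 to 3979 with 1 library left out, lowest without MC903 replicate 1. Other retinoid genes called higher numbered 8, 4 at a mean FPKM of at least 5 (Rbp4, Bco2, Aldh1a2 and Ncoa7 are under it), 4 with the block, and 5 to 12 with 1 library left out. Those called lower numbered 6 to 11. Uncalled estimates changed sign for Crabp1 (-0.053 to 0.41 with 1 library left out; -0.016 without phytic acid replicate 1, -0.017 without MC903 replicate 2) and for Rarg (-0.021, without phytic acid replicate 1, to 0.18). The cause of these changes was not tested. Deviations from the group mean correlated at -0.28, -0.10, -0.29 and 0.23 between same-numbered libraries 1 to 4. Pairs of unlike number ran from -0.29 to 0.40. With so few libraries this cannot tell whether a number marks a shared animal or batch, and the labels do not say. With the block, the exact sign-flip test of 4 pairs cannot reach 0.05, and with 1 library left out the exact permutation test cannot go below 0.0571. Without a library the Crabp2 to Crabp1 difference ran from -2.79 to -2.28. Depth limits genes of few reads, among them Crabp1 (50 to 197 reads), Cyp26a1 and Cyp26c1.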
